A study of Mus musculus with 6 samples.

Results

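Collagens are matrix proteins whose chains wind around one another in a triple helix, and the vertebrate genome holds a separate gene for each chain. The collagen genes described here are the rows of the deposited gene table whose symbol is Col, a type number, the letter a and a chain number, and there were 44 of them among 27179 genes. They were taken by name alone, with no measured value. By the usual classes 11 are fibrillar, 8 belong to basement membranes (type IV and the multiplexins XV and XVIII), 6 are microfibril chains of type VI, 9 are FACITs (collagens that sit on the surface of fibrils), 4 are transmembrane collagens and 6 belong to other types. Messenger RNA had been sequenced from primary mouse smooth muscle cells of the aorta in 6 libraries, 3 labelled Bmal1 KO (called KO-labelled) and 3 labelled wild type (WT). The Bmal1 protein is a core clock transcription factor and the DNA-binding partner of CLOCK. All cultures, of both labels, had spent 7 days in DMEM with 10% fetal bovine serum, glucose at 4.5 g/L and hydrogen peroxide at 0.3 mM, which the labels call a diabetic medium, so there is no comparison with ordinary medium here. The labels give neither age nor sex of the mice, nor how Bmal1 was deleted, nor whether replicates came from separate mice or cultures, and a p-value here may therefore measure no more than technical spread.

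In the muscular layer of an artery, smooth muscle cells make most of the collagen. Fibrils of types I, III and V bear tension, type IV forms the sheet of the basement membrane around each cell, type VI forms beaded filaments next to it, and FACITs such as types XII and XIV coat the fibrils. A collagen molecule is a trimer, and many types need chains from more than 1 gene, so the proportions of chain mRNAs are of interest beside their levels.

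Reads assigned to genes came to between 32503525 and 38074293 in KO-labelled libraries and between 39129037 and 44657471 in WT. The deposited values are counts divided by a size factor per library, called normalized counts here. Bmal1 itself, listed as Arntl, had 1036, 941 and 1036 normalized counts in KO-labelled libraries, against 529, 619 and 590.4 in WT, so the gene total does not bear out the label (it does not show which exons were read), and every direction below is between labels. The labels also went with sex-linked RNA. Xist, made from the inactive X chromosome of female cells, had 3842 to 3887 normalized counts in KO-labelled libraries and 12.4 to 89.9 in WT, while Y-linked Ddx3y had 68.5 to 82.5 in KO-labelled libraries and 2784 to 3314 in WT, so label and sex-linked expression cannot be told apart in any result below. Of 7 smooth muscle markers all were higher in KO-labelled libraries, with summed normalized counts of 99990 to 108298 in KO-labelled libraries against 28598 to 32722 in WT. Myh11, the myosin of mature smooth muscle, was low in all libraries, at 259, 272 and 291 in KO-labelled libraries, against 24.8, 14.9 and 68.2 in WT. Fibroblast markers (4 of 8 higher, 4 lower) summed to 50711 to 52514 in KO-labelled libraries against 56470 to 60028 in WT. That sum offsets Serpinf1, higher (mean 34723 in KO-labelled libraries, 14165 in WT), against Dcn, lower (2403 and 26319.5). Mesothelial markers (3 of 6 higher, 3 lower) summed to 8080 to 11871 in KO-labelled libraries against 3946 to 5126 in WT. Among them Msln was higher (4525 and 356) and Krt19 lower (1296 and 2566). Krt8, called higher, had overlapping groups (757 to 4390 in KO-labelled libraries, 134 to 809 in WT). Endothelial markers (5 of 7 higher, 1 lower) summed to 925 to 1252 in KO-labelled libraries against 725 to 850.1 in WT, and macrophage markers (5 of 7 higher, 2 lower) to 2207 to 2471 in KO-labelled libraries against 3577 to 4134 in WT. The 2 lower macrophage markers were Cd14 (mean 404 in KO-labelled libraries, 2886 in WT) and Cd68 (74.0 and 348). Cd14 made up most of the WT sum, so that sum goes against the 5 markers that were higher. Chondrocyte markers (1 of 7 higher, 1 lower, 3 too low to test) summed to 1445 to 1557 in KO-labelled libraries against 2020 to 2149 in WT. Most of that sum was Sox9, the lower gene (mean 1442 in KO-labelled libraries, 2023 in WT). The higher gene was Hapln1 (33.1 and 2.42). Higher and lower mean here called by the test described below, which called 36.2% of all genes tested higher and 34.9% lower. A call alone therefore does not set a marker apart. None of these markers was at 0 in every library. Their part in the results was not tested, and in bulk RNA fewer cells of a type and less RNA per cell cannot be told apart.

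Sequence before the start sites is shown for the 3 collagen genes with the largest log2 fold changes, and for the neighbours Col4a6 and Col4a5, of which Col4a6 was called lower and Col4a5 did not pass. Windows are the 250 bases before a start site (a gene can have others), from RefSeq promoters of build GRCm38.p6, read 5′ to 3′ on the gene's strand, and are printed less any base that the GENCODE M21 annotation places in an exon. The Col15a1 and Col28a1 windows lie wholly inside the RefSeq gene bounds, which open at 47207655 for Col15a1 and at 8193709 for Col28a1. These 2 windows thus precede a start site inside the gene, not the outermost one. Capitals mark matches to the motifs listed after the sequences. The Col15a1 window is chr4:47207762-47208011 on the plus strand, that of Col6a3 chr1:90843972-90844221 on the minus strand, that of Col28a1 chr6:8192618-8192867 on the minus strand, that of Col4a6 chrX:141474077-141474326 on the minus strand and that of Col4a5 chrX:141475169-141475384 on the plus strand, which leaves 216 bases.
Col15a1: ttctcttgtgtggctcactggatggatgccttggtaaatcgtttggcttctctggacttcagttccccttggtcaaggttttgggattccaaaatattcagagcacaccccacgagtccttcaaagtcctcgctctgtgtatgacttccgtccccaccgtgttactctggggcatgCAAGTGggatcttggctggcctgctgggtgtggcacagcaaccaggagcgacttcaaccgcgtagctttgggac
Col6a3: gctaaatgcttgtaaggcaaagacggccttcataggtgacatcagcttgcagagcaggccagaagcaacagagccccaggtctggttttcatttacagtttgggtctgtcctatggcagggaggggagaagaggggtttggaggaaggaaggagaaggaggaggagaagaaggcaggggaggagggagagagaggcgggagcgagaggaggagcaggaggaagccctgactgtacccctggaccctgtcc
Col28a1: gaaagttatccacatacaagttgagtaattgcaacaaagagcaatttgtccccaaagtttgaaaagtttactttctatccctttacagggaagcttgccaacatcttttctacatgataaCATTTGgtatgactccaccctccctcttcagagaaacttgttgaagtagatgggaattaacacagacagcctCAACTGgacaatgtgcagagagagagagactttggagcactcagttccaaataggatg
Col4a6: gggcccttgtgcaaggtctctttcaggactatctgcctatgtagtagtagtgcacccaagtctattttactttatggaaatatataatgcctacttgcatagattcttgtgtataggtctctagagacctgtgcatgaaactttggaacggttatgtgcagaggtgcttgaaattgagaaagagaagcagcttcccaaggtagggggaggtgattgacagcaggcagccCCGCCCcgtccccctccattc
Col4a5: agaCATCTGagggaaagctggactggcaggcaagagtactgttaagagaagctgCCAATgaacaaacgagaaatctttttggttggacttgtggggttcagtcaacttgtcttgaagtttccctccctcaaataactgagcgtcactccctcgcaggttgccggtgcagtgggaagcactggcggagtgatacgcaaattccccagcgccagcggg
The promoter table matched 35 of the 44 collagen genes with 38 windows, and motifs were searched over all 250 bases on both strands. CACGTG, the E-box that CLOCK and BMAL1 bind, was in 0 of 38 collagen windows and in 6.02% of all 32851 windows. Its variant CACGTT was in 2 (Col4a4 and Col6a6, 5.26%) and in 3.85% of all. The looser E-box CANNTG, which includes CACGTG, was in 19 (50%) and in 66.2% of all, and it matched once before Col15a1, 74 bases upstream, and 130 and 58 bases upstream of Col28a1. GGGCGG, the GC box, was in 22 (57.9%) and in 32.7% of all, including Col4a6 at 21 bases upstream and Col4a5 at 30, the last within the exonic bases not printed. CCAAT was in 13 (34.2%) and in 33.9% of all, TATAAA in 5 (13.2%) and in 12.4%, the AP-1 motif TGANTCA in 1 (Col6a1, 2.63%) and in 6.75%, and the CArG box of serum response factor in 1 (Col6a4, 2.63%) and in 1.47%. The Col6a3 window held none of these motifs. A match describes letters only, and its absence says nothing of binding elsewhere.

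Of the 44 collagen genes 42 had at least 10 normalized counts in at least 3 libraries and were tested. In the KO-labelled libraries 22 were higher and 8 lower, and 12 did not pass (limma, Benjamini-Hochberg adjusted p under 0.05 over all 16086 genes tested). The share called, 71.4%, was near that of all genes tested, 71.1%, so the number of calls does not set collagens apart. By direction, 52.4% of tested collagens were higher and 19.0% lower, where 36.2% of all genes were higher and 34.9% lower. The median log2 fold change was 0.68 over collagens and -0.012 over all genes tested. Called differences of at least 2-fold in group means made up 59.5% of tested collagens and 33.6% of all genes, and called rises of at least 8-fold, a size chosen after the values were seen, 6 of 42 collagens (14.3%) and 4.03% of all genes. Those 6 were Col15a1, Col28a1, Col6a3, Col12a1, Col4a3 and Col13a1, with Col25a1 just short at 7.85-fold. The groups did not overlap in 34 of 42 collagens (81.0%) and in 76.7% of all genes. Collagen mRNAs are long, and with a trend of the fold change on exon length and GC content removed, an alternative added after the data were seen, 20 collagens were higher and 12 lower.

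**Figure D1:**
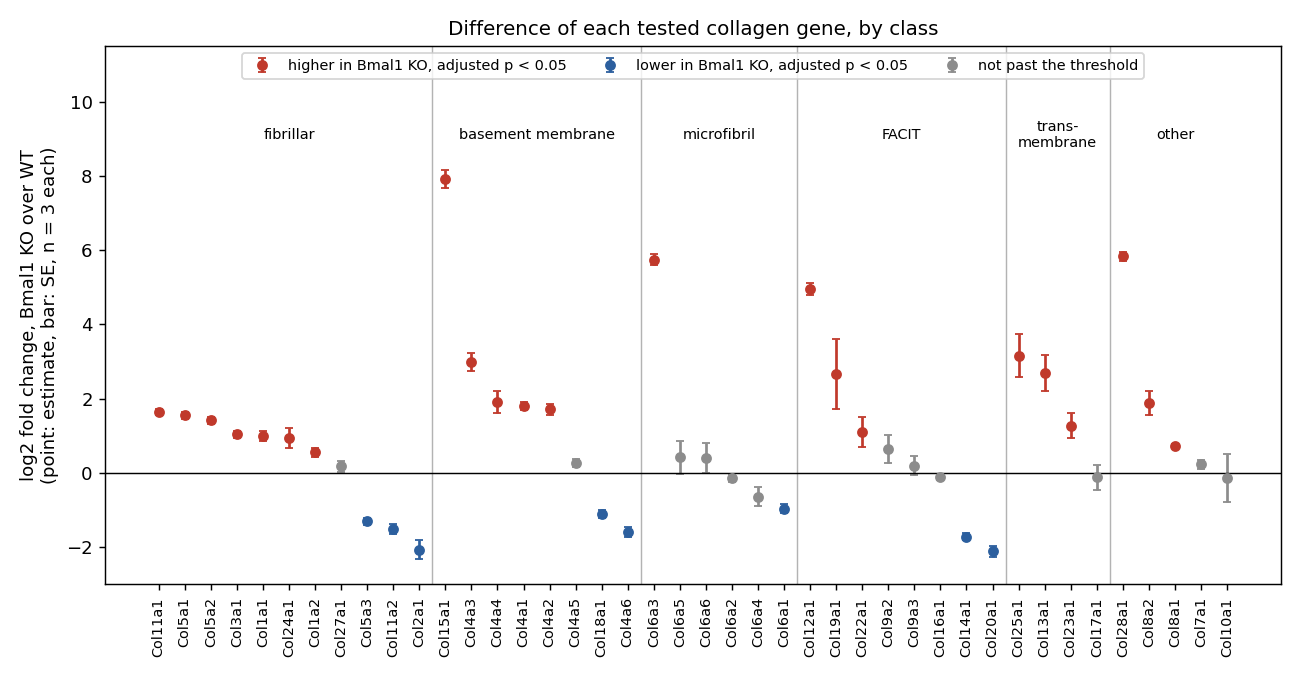
Log2 fold change (KO-labelled libraries over WT, on the log2(normalized count + 1) scale) of the 42 tested collagen genes, by class; points are estimates from 3 libraries a group and bars their SE. The 4 largest, Col15a1, Col28a1, Col6a3 and Col12a1, lie between 4.95 and 7.92, in 4 different classes.

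Fibrillar collagens, which build the striated fibrils of tissue, were higher in 7 of 11 genes and lower in 3. Those shares were 63.6% and 27.3%, against 36.2% higher and 34.9% lower of all genes tested. Type I, the main collagen of fibrils, comes from Col1a1 (chromosome 11, 94936224 to 94953042 in mm10) and Col1a2. Col1a1 had 200593, 215368 and 205220 normalized counts in KO-labelled libraries, against 94725, 116849 and 100178 in WT libraries, a 1.99-fold rise (log2 fold change 1.00, SE 0.13, adjusted p = 2.19e-04). Col1a2 had 159490, 167626 and 156299 in KO-labelled libraries, against 99085, 123675 and 106660 in WT, a 1.47-fold rise (log2 fold change 0.56, SE 0.12, adjusted p = 0.00415). All KO-labelled libraries lay above all WT libraries for both chains, as in 38.5% of all genes tested. Col3a1, whose type III trimers mix with type I in vessels, had 57121, 59668 and 54354 in KO-labelled libraries, against 25588, 30346 and 27154 in WT, 2.06-fold higher (adjusted p = 3.03e-05).

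Type V collagen is buried inside type I fibrils and limits their thickness, and its chains did not move together. Col5a1 had 33417, 35270.2 and 32924 normalized counts in KO-labelled libraries, against 10293, 13053 and 11551 in WT libraries (2.91-fold higher, log2 fold change 1.55, SE 0.0945, adjusted p = 4.79e-06). Col5a2 had 26306, 26622 and 25472 in KO-labelled libraries, against 8932, 10904 and 9682 in WT (2.66-fold higher, adjusted p = 3.98e-06). The third chain went the other way. Col5a3 had 629.8, 623 and 607 in KO-labelled libraries, against 1369, 1724 and 1509 in WT, 2.47-fold lower (log2 fold change -1.30, SE 0.0953, adjusted p = 1.23e-05). In each of these 3 genes the groups did not overlap, as in 76.7% of all genes tested. The type XI chains, best known from cartilage, split as well. Col11a1 had 4519, 4529.7 and 4533 in KO-labelled libraries, against 1313, 1604 and 1476 in WT, a rise of 3.09-fold (log2 fold change 1.63, SE 0.0798, adjusted p = 1.44e-06). Col11a2 had 173, 147 and 135 in KO-labelled libraries, against 429, 455 and 415 in WT, 2.85-fold lower (adjusted p = 3.25e-05). Col2a1, the main cartilage fibril chain, had 26.5, 18.0 and 19.4 in KO-labelled libraries, against 78.9, 106 and 91.2 in WT, 4.32-fold lower (adjusted p = 1.89e-04).

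The minor fibrillar genes were low. Col24a1 had 49.9, 80.3 and 70.8 in KO-labelled libraries, against 32.1, 29.0 and 40.5 in WT (adjusted p = 0.0129), a call that did not hold when Bmal1 KO replicate 2 was left out (adjusted p = 0.0537). Col27a1 had 148, 137 and 133 in KO-labelled libraries, against 130.2, 109 and 129.9 in WT, where the groups did not overlap but the test did not pass (adjusted p = 0.328). Over the class the median log2 fold change was 0.95.

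**Figure D2:**
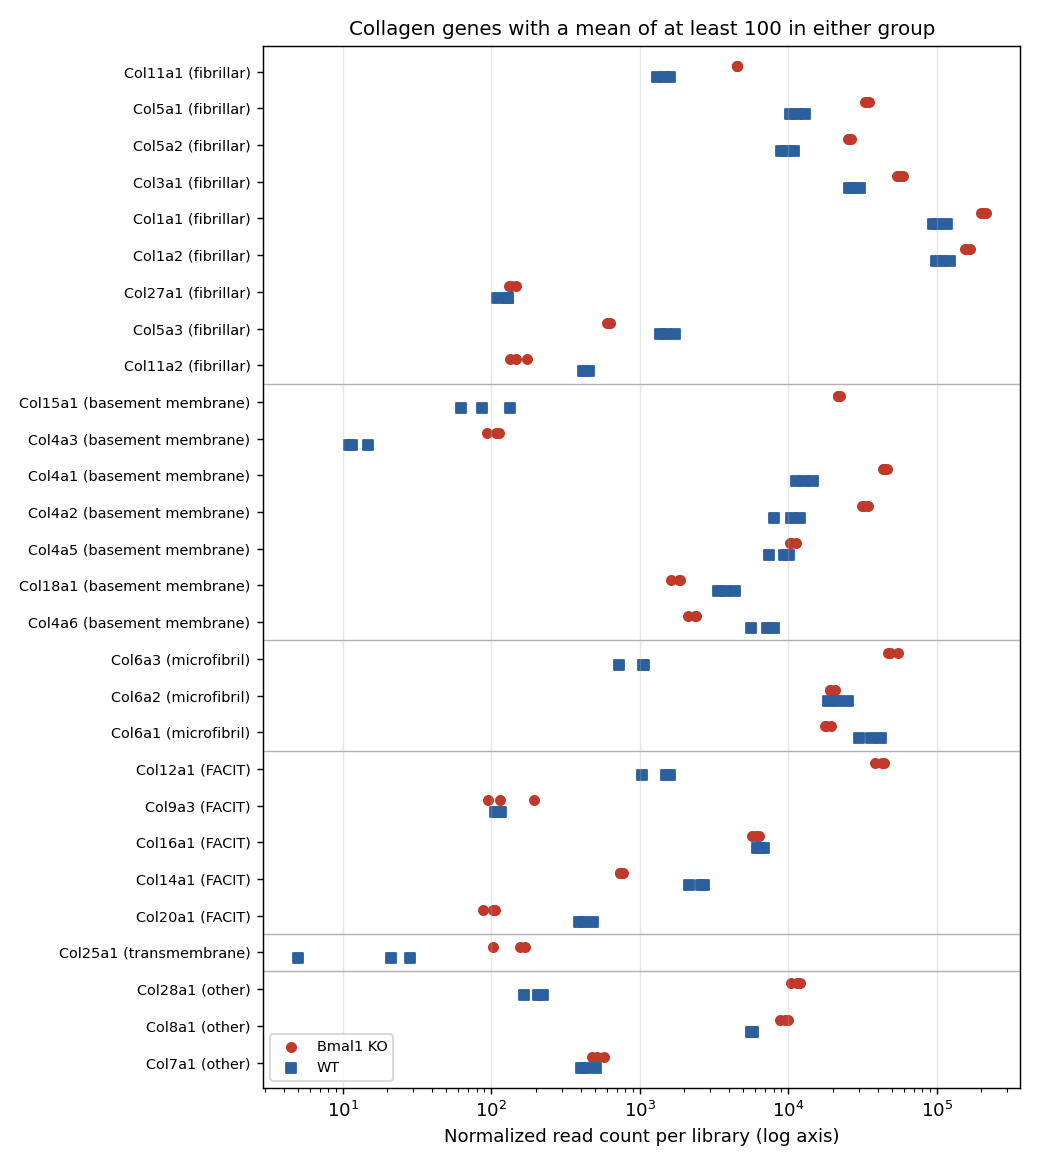
Normalized read count in every library (log axis) for the 28 collagen genes with a mean of at least 100 in either group, ordered by class; circles are KO-labelled libraries and squares WT, 3 each. Col15a1, Col6a3, Col12a1 and Col28a1 sit more than an order of magnitude higher in KO-labelled libraries, and the fibrillar chains of types I and III shift far less.

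Basement membrane collagens held the largest single difference. Col15a1 (chromosome 4, 47207655 to 47313167) encodes a multiplexin, a collagen with an interrupted helix found between basement membrane and fibrils. It had 21707, 22261 and 21838 normalized counts in KO-labelled libraries, against 62.4, 86.2 and 134 in WT libraries, a 232-fold rise of group means (log2 fold change 7.92, SE 0.24, adjusted p = 1.31e-07). The WT libraries spread widely, and all lay far below the KO-labelled ones. By level per kilobase of exon it ranked 10 among the 44 collagen mRNAs in KO-labelled libraries and 27 in WT. The other multiplexin, Col18a1, whose protein releases the fragment endostatin, went the other way, with 1833, 1884 and 1630.1 in KO-labelled libraries, against 3348, 4383 and 3830.4 in WT, 2.16-fold lower (adjusted p = 5.28e-05).

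Type IV chains form the membrane's network, and their genes lie in head-to-head pairs. Col4a1 and Col4a2 (chromosome 8) encode the chains of the common network. By RefSeq gene bounds these 2 genes start 84 bases apart on opposite strands and overlap by 85 bases. Col4a1 had 44404, 46476 and 43607 normalized counts in KO-labelled libraries, against 11235, 14648 and 12837 in WT libraries, a 3.47-fold rise (log2 fold change 1.80, SE 0.10, adjusted p = 3.17e-06). Col4a2 had 32502, 34741 and 31566 in KO-labelled libraries, against 8075, 12061 and 10440.3 in WT, a 3.23-fold rise (adjusted p = 2.03e-05). Both genes of this pair were higher by a similar factor. No library crossed between groups, as in 76.7% of all genes tested. Col4a3 and Col4a4 (chromosome 1, starts 113 bases apart, with an overlap of 114 bases) encode chains best known from the kidney filter and were scarce. Col4a3 had 112, 93.5 and 107 in KO-labelled libraries, against 11.01, 11.6 and 14.7 in WT, or 8.38-fold higher, and Col4a4 had 70.3, 116 and 97.1 in KO-labelled libraries, against 22.9, 31.5 and 18.4 in WT, or 3.89-fold (adjusted p = 2.15e-05 and adjusted p = 6.44e-04). Of the Col4a3 exons 274 bases (3.20%) overlap the antisense gene C430014B12Rik, so some of its reads are uncertain.

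The pair on the X chromosome did not move together. Col4a5 and Col4a6, whose chains form a network found around smooth muscle, start 1275 bases apart on opposite strands by RefSeq gene bounds. Col4a6 had 2351, 2386 and 2125 normalized counts in KO-labelled libraries, against 5624, 8001 and 7193 in WT libraries, 3.03-fold lower (log2 fold change -1.59, SE 0.13, adjusted p = 1.83e-05). Col4a5 had 10531, 11255 and 10348 in KO-labelled libraries, against 7481, 10065 and 9330.5 in WT, with no overlap between groups but a small difference of 1.20-fold that did not pass (adjusted p = 0.0567). Col4a5 passed without WT replicate 2 (adjusted p = 0.0147), with upper-quartile scaling (adjusted p = 0.0308), in DESeq2 (adjusted p = 0.0315) and with the replicate number as a block (adjusted p = 0.0242), and its direction turned with the length and GC trend removed (log2 fold change -0.022). Because both genes are X-linked, the Xist difference given above goes with them too, and its part was not tested. Of the 8 genes of the class 5 were higher (62.5%) and 2 lower (25%), with a median log2 fold change of 1.76. Of all genes tested 36.2% were higher and 34.9% lower.

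Microfibrillar type VI collagen is assembled from Col6a1, Col6a2 and a longer partner, usually the Col6a3 chain, and cannot be secreted in its usual form without all of them. These 3 genes each did something different. Col6a3 (chromosome 1, 90766860 to 90844001) had 48585, 55017 and 46957 normalized counts in KO-labelled libraries, against 732, 1053 and 1065 in WT libraries, a 52.8-fold rise (log2 fold change 5.74, SE 0.15, adjusted p = 6.12e-08). Col6a1 (chromosome 10, 76708792 to 76726044) had 18121, 19590.0 and 17699.5 in KO-labelled libraries, against 30143, 42320.3 and 36190.0 in WT, 1.96-fold lower (log2 fold change -0.96, SE 0.12, adjusted p = 2.50e-04). Col6a2, which lies 85161 bases from Col6a1 on the same strand, had 19164, 20708 and 19068 in KO-labelled libraries, against 18694, 25226 and 21363 in WT, where the groups overlapped and the test did not pass (adjusted p = 0.292). Without WT replicate 1 Col6a2 passed as lower (log2 fold change -0.24, adjusted p = 0.0325), and it also did with the length and GC trend removed (log2 fold change -0.47). The genes for the alternative partners of Col6a3, which are Col6a4, Col6a5 and Col6a6, had at most 62.2 normalized counts in any library and did not pass. Col6a4 had 40.8, 27.6 and 34.3 in KO-labelled libraries, against 46.8, 62.2 and 51.6 in WT (adjusted p = 0.0504), and it passed as lower in 5 of 17 alternatives. Those were without Bmal1 KO replicate 1 (adjusted p = 0.0416), with TMM scaling (adjusted p = 0.0376), a pseudocount of 5 (adjusted p = 0.0415), edgeR (adjusted p = 0.0485) and the length and GC trend removed (log2 fold change -1.01, adjusted p = 0.0092). With 1 gene higher, 1 lower and 4 not passing, this class had a median log2 fold change of 0.13. The share called was 33.3%, against 71.1% of all genes tested.

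FACIT collagens moved both ways, and here too related chains parted. Types XII and XIV are close relatives that bind to the surface of type I fibrils. Col12a1 (chromosome 9, 79598987 to 79721141) had 43186, 44524 and 38634 normalized counts in KO-labelled libraries, against 1043, 1599.6 and 1505 in WT libraries, a 30.5-fold rise (log2 fold change 4.95, SE 0.15, adjusted p = 1.52e-07). Col14a1 (chromosome 15, 55307644 to 55520803) had 767, 742 and 737 in KO-labelled libraries, against 2154, 2724 and 2575 in WT, 3.32-fold lower (log2 fold change -1.72, SE 0.0949, adjusted p = 2.78e-06). The groups did not overlap in either gene, as in 76.7% of all genes tested. Col20a1 had 87.6, 103 and 106 in KO-labelled libraries, against 388, 488 and 417 in WT, 4.35-fold lower (adjusted p = 9.86e-06). Col16a1, a FACIT-like collagen of many tissues, had 6049, 6341 and 5728 in KO-labelled libraries, against 6496, 6916 and 6209 in WT, overlapping groups that did not pass (adjusted p = 0.159), though with the length and GC trend removed it was called lower (log2 fold change -0.44).

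Type IX, a cartilage FACIT, was scarce. Col9a3 had 95.8, 114 and 195 in KO-labelled libraries, against 113, 116 and 107 in WT and overlapped, with 1 KO-labelled library high. Its exons share 234 bases (7.68%) with the antisense gene Tcfl5, and since the strand setting of the counting is not given, some of its reads are uncertain. Col9a2 had at most 28.8 normalized counts and did not pass (adjusted p = 0.152), and Col9a1, not tested, had 6 reads over the KO-labelled libraries and 1 over WT. Col19a1 and Col22a1 were called higher at low levels. Col19a1 had 26.5, 37.2 and 37.7 in KO-labelled libraries, against 9.17, 0 and 14.7 in WT, a 4.24-fold difference of means and a log2 fold change of 2.66 that was 1.44 without WT replicate 2, 3.43 without WT replicate 3, 1.78 with a pseudocount of 5 and 2.07 in edgeR. Its call (adjusted p = 0.0345) was lost with any KO-labelled replicate left out (adjusted p = 0.0618, 0.0861 and 0.0895 without Bmal1 KO replicates 1, 2 and 3). Col22a1 had 19.4, 10.8 and 20.6 in KO-labelled libraries, against 6.42, 5.80 and 9.21 in WT (adjusted p = 0.0386), a call lost in DESeq2 (adjusted p = 0.0971) and in 4 of 6 fits with a library left out (adjusted p = 0.0854 and 0.0834 without WT replicates 1 and 2, and adjusted p = 0.109 and 0.122 without Bmal1 KO replicates 1 and 3). Of 8 tested FACIT genes 3 were higher and 2 lower, with a median log2 fold change of 0.42. The share higher, 37.5%, was near the 36.2% of all genes tested, and 25% were lower, against 34.9% of all genes.

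Transmembrane collagens sit in the cell membrane with their helix outside, and all 4 genes were scarce. Col25a1, known from neurons, had 169, 157 and 103 normalized counts in KO-labelled libraries, against 21.1, 4.98 and 28.6 in WT libraries, a 7.85-fold rise (log2 fold change 3.16, and 2.46 without WT replicate 2, adjusted p = 0.00150). Col13a1, known from the neuromuscular junction, had 53 reads over the KO-labelled libraries and 8 over WT, a ratio of 8.20 with an exact 95% counting interval of 3.87 to 19.96 (adjusted p = 0.00150). Its log2 fold change of 2.70 was 1.75 with a pseudocount of 5. Col23a1 had 34.6, 57.6 and 50.3 in KO-labelled libraries, against 13.8, 18.2 and 25.8 in WT (adjusted p = 0.00951). In these 3 of 4 genes (75%) the groups did not overlap, near the 76.7% of all genes tested. Col17a1, a hemidesmosome component of skin, had at most 23.9 normalized counts in any library and did not pass (adjusted p = 0.762).

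Among the other types, Col28a1 stood out (chromosome 6, 7997100 to 8193709). It encodes a collagen with von Willebrand factor domains that is known from peripheral nerve, around Schwann cells. It had 11412, 12077 and 10508 normalized counts in KO-labelled libraries, against 167, 223 and 208 in WT libraries, a 56.8-fold rise (log2 fold change 5.83, SE 0.11, adjusted p = 1.91e-08). The list of 5 Schwann cell markers moved with it, 3 higher and 2 too low to test, where 36.2% of all genes tested were higher. The list summed to 910.0 to 1555 normalized counts in KO-labelled libraries against 131 to 415 in WT, and its part in the Col28a1 difference was not tested. Col8a1, a short network-forming collagen made by vascular smooth muscle, had 9590.0, 9967 and 8882 in KO-labelled libraries, against 5663, 5718 and 5803 in WT, a 1.65-fold rise (adjusted p = 2.96e-05). Its partner Col8a2 had 34.6, 50.4 and 43.4 in KO-labelled libraries, against 11.9, 7.46 and 13.8 in WT, or 3.87-fold (adjusted p = 0.00138).

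Col7a1, which forms the anchoring fibrils of skin, had 477, 517 and 573 in KO-labelled libraries, against 511, 426 and 402 in WT, overlapping groups that did not pass (adjusted p = 0.130). It passed as higher without WT replicate 1 (adjusted p = 0.0281) and as lower with the length and GC trend removed (log2 fold change -0.34, adjusted p = 0.0447). Col10a1, a marker of hypertrophic cartilage, had at most 18.0 normalized counts in any library and did not pass (adjusted p = 0.860). Col26a1, not tested, had no WT reads and 19 over the KO-labelled libraries. With WT set to the 3 reads that a group count of 0 allows, the ratio of means was 8.19. The counting error of the 19 reads is left out, so this ratio is not a lower bound.

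Summed over all 44 genes, collagens took 1.94%, 2.05% and 1.92% of assigned reads in KO-labelled libraries, against 0.918%, 1.18% and 1.05% in WT. The means were 1.97% ± 0.0696 in KO-labelled libraries and 1.05% ± 0.128 in WT (SD, n = 3 each), without overlap, and the two-sided exact permutation test gave p = 0.1, the smallest that 3 libraries against 3 allow. Levels of different genes were compared per kilobase of exon. On that scale Col1a1 made up 28.2% of collagen mRNA in KO-labelled libraries and 25.5% in WT (means of 3 libraries), and Col1a2 24.4% in KO-labelled libraries and 29.9% in WT. Col6a1 held 3.64% in KO-labelled libraries and 12.8% in WT, where it was the third most abundant collagen mRNA. Col6a3 held 3.73% in KO-labelled libraries and 0.127% in WT, and Col15a1 2.94% in KO-labelled libraries and 0.0228% in WT. Col12a1 held 2.80% in KO-labelled libraries and 0.165% in WT, and Col28a1 2.16% in KO-labelled libraries and 0.0686% in WT. All 4 held a larger share in each KO-labelled library than in any WT library. They are also the 4 collagens with the largest log2 fold changes in these libraries, so this separation follows from that choice.

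By class and per kilobase, fibrillar collagens held 67.9% ± 0.405 of collagen mRNA in KO-labelled libraries and 67.7% ± 1.07 in WT (SD, n = 3 each), with overlap (exact permutation p = 0.8). Higher shares in KO-labelled libraries were found for 4 classes. Basement membrane collagens held 14.4% ± 0.0652 in KO-labelled libraries and 9.49% ± 0.516 in WT, and FACITs 3.90% ± 0.139 in KO-labelled libraries and 2.76% ± 0.155 in WT. The other types held 3.72% ± 0.122 in KO-labelled libraries and 1.80% ± 0.204 in WT, and transmembrane collagens 0.0310% ± 0.00223 in KO-labelled libraries and 0.0151% ± 0.00568 in WT. Microfibril chains held less, 10.0% ± 0.240 in KO-labelled libraries and 18.2% ± 0.875 in WT. The groups did not overlap in any of these 5 classes (exact permutation p = 0.1, adjusted p = 0.12 over 6 classes). The higher FACIT share lay in Col12a1 (2.80% in KO-labelled libraries and 0.165% in WT). Shares of Col16a1 (0.938% in KO-labelled libraries and 1.84% in WT), Col14a1 and Col20a1 were lower. In the other types the higher share lay in Col28a1 (2.16% in KO-labelled libraries and 0.0686% in WT). There the share of Col8a1 overlapped between groups and that of Col7a1 was lower. Within the microfibril class the share of Col6a3 was higher in KO-labelled libraries, and those of Col6a1 and of Col6a2 (2.64% in KO-labelled libraries and 5.26% in WT) were lower. Counted in plain reads, which weigh long mRNAs more, the fibrillar share was 64.2% ± 0.519 in KO-labelled libraries and 69.1% ± 1.05 in WT and did not overlap, so its direction depends on the unit. FACITs took 6.43% ± 0.267 of collagen reads in KO-labelled libraries and 2.86% ± 0.121 in WT, a wider gap than per kilobase.

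**Figure D3:**
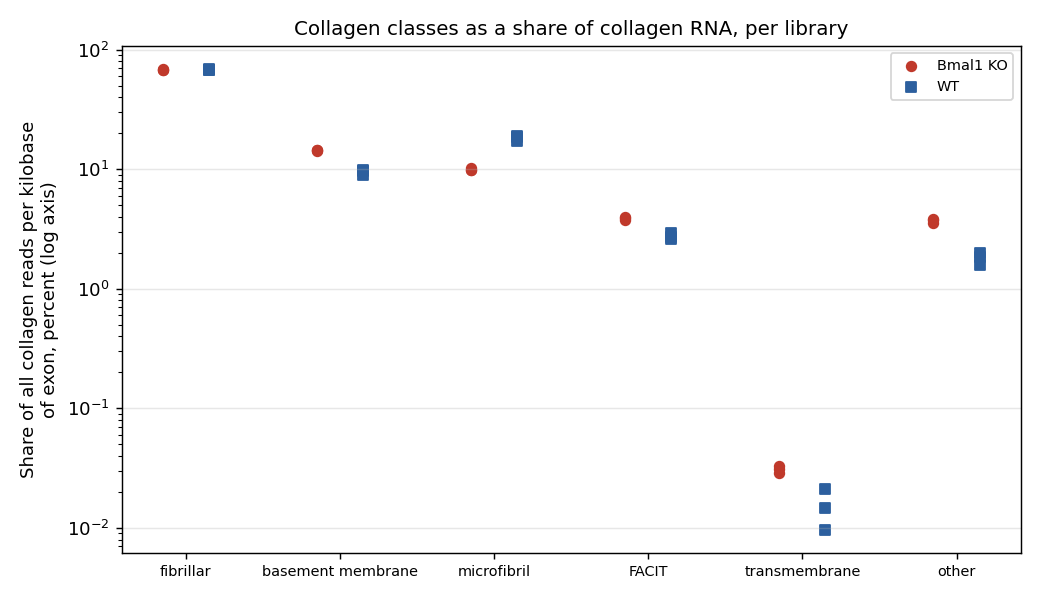
Share of each collagen class in all collagen reads per kilobase of exon, in percent on a log axis, for each of 3 KO-labelled libraries (circles, left) and 3 WT libraries (squares, right). The fibrillar points average 67.9% in KO-labelled libraries and 67.7% in WT, and the microfibril points 10.0% in KO-labelled libraries and 18.2% in WT.

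Chain proportions within a library need no scaling between libraries, and 12 pairs were compared. Ratios printed are of reads per kilobase of exon. Tests and folds instead use the log2 ratio of normalized counts with 1 added to each chain. Two-sided exact permutation tests cannot give less than p = 0.1 here (adjusted p = 0.133 over the 12 pairs for the 9 pairs without overlap). The ratio of Col6a3 to Col6a1 was 1.01, 1.06 and 1.00 in KO-labelled libraries, against 0.00917, 0.00940 and 0.0111 in WT, a 104-fold difference. The 2 chains were thus near parity in mRNA in KO-labelled libraries, and Col6a3 was far the scarcer in WT. The ratio of Col6a2 to Col6a1 was 0.722, 0.721 and 0.735 in KO-labelled libraries, against 0.423, 0.407 and 0.403 in WT.

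Col4a6 stood to Col4a5 as 0.219, 0.208 and 0.202 in KO-labelled libraries, against 0.739, 0.782 and 0.758 in WT. The ratio of Col4a5 to Col4a1, which sets the smooth muscle network beside the common one, was 0.240, 0.245 and 0.240 in KO-labelled libraries, against 0.674, 0.695 and 0.736 in WT. Col5a3 stood to Col5a1 as 0.0259, 0.0243 and 0.0253 in KO-labelled libraries, against 0.183, 0.181 and 0.180 in WT, 7.20-fold lower. These 3 ratios were lower in every KO-labelled library. Col1a2 to Col1a1 was 0.882, 0.863 and 0.845 in KO-labelled libraries, against 1.16, 1.17 and 1.18 in WT, a smaller shift of the same kind.

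The other 6 pairs included 3 with overlapping groups. Col4a2 to Col4a1 was 0.753 ± 0.0123 in KO-labelled libraries and 0.805 ± 0.0592 in WT (SD, n = 3 each) and overlapped (exact permutation p = 0.4). Col3a1 to Col1a1 was 0.294 ± 0.0107 in KO-labelled libraries and 0.285 ± 0.00672 in WT and overlapped too (exact permutation p = 0.3). Col5a2 to Col5a1 was 0.979 ± 0.0207 in KO-labelled libraries and 1.07 ± 0.0228 in WT, without overlap but only 1.10-fold lower. Col11a1 to Col5a1 was 0.147 ± 0.00526 in KO-labelled libraries and 0.138 ± 0.00307 in WT, without overlap and 1.06-fold higher. Col8a2 to Col8a1, with few Col8a2 reads, was 0.00533 ± 0.000929 in KO-labelled libraries and 0.00228 ± 0.000659 in WT, 2.23-fold higher without overlap. Col4a4 to Col4a3, from at most 116 normalized counts of a gene in a library, was 0.783 ± 0.261 in KO-labelled libraries and 1.71 ± 0.622 in WT and overlapped (exact permutation p = 0.2).

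**Figure D4:**
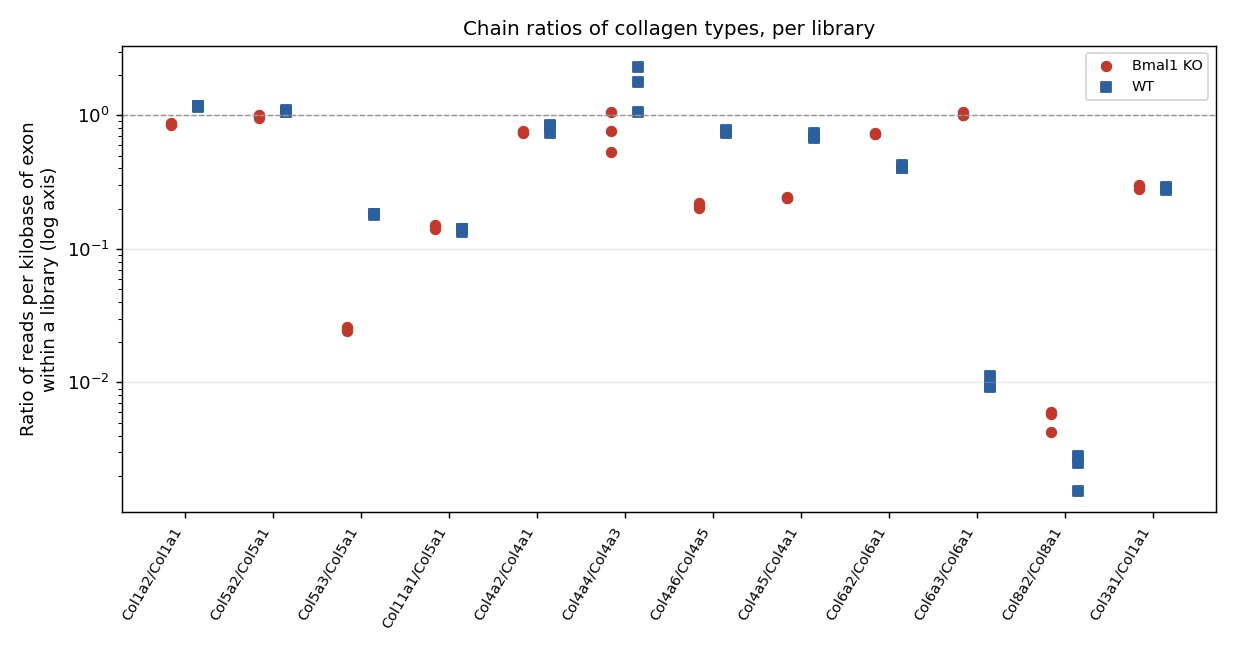
Ratio of reads per kilobase of exon between chains within each library, on a log axis, for 12 pairs; circles (left) are the 3 KO-labelled libraries, squares (right) the 3 WT libraries, and the dashed line marks equal levels. Col6a3/Col6a1 lies near 1 in KO-labelled libraries and near 0.01 in WT, and Col5a3/Col5a1 and Col4a6/Col4a5 are lower in KO-labelled libraries.

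Genes that modify, fold, export and trim procollagen moved both ways. Of 34 genes listed, 32 were tested, and 16 were higher and 8 lower (75% called, against 71.1% of all genes), with a median log2 fold change of 0.19. Among those higher, Tll1, a protease of the BMP1 family that removes the carboxyl propeptide of procollagen, had 7164, 7266 and 7271 normalized counts in KO-labelled libraries, against 11.01, 23.2 and 29.5 in WT libraries (341-fold in means, log2 fold change 8.45, SE 0.30, adjusted p = 3.06e-07). Pcolce2, which enhances that cleavage, had 282, 264 and 312 in KO-labelled libraries, against 21.1, 10.8 and 9.21 in WT (20.9-fold higher), whereas Bmp1 itself had 12189.5, 12407 and 11839 in KO-labelled libraries, against 11238, 13493 and 11791 in WT and did not pass (adjusted p = 0.994). The foldase gene Fkbp14 was 2.76-fold higher, the prolyl hydroxylase gene P4ha3 2.97-fold, Sparc, which encodes a collagen-binding protein, 2.21-fold and Sec23a, a coat gene of vesicles that leave the endoplasmic reticulum, 2.24-fold (each adjusted p at most 1.25e-05). In the 6 higher genes named here the groups did not overlap, as in 76.7% of all genes tested. These 6 were picked by smallest adjusted p, which favours separated groups.

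Among those lower, P4ha1, the main catalytic subunit of prolyl 4-hydroxylase, had 6605, 6669.9 and 6934 normalized counts in KO-labelled libraries, against 20312, 19174 and 19296 in WT libraries, 2.91-fold lower (log2 fold change -1.54, SE 0.0588, adjusted p = 4.02e-07). The lysyl hydroxylase gene Plod2, which sets the cross-link type, had 7184, 6949 and 6843 in KO-labelled libraries, against 13078, 12108 and 13235 in WT, 1.83-fold lower (adjusted p = 1.01e-05). Adamts14, an amino-propeptide protease gene, was 4.30-fold lower, P3h2, a prolyl 3-hydroxylase gene, 2.18-fold, P4ha2 1.28-fold and Larp6, whose protein binds collagen mRNAs, 1.34-fold (adjusted p between 1.33e-05 and 0.00291). Paralogs thus differed in direction, P4ha3 above and P4ha1 and P4ha2 below WT. Beside the lower Adamts14, its paralog Adamts2 was 2.14-fold higher and Adamts3 did not pass. Beside the lower Plod2, Plod1 was 1.55-fold and Plod3 1.41-fold higher.

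Of 15 collagen receptor and uptake genes tested, 6 were higher (40%) and 5 lower (33.3%), near the 36.2% and 34.9% of all genes. The share called, 73.3%, was also near that of all genes, 71.1%, and the median log2 fold change was 0.19. With the length and GC trend removed 5 were higher and 7 lower, with a median of -0.11. Itga2, a collagen-binding integrin chain, had 654, 610.3 and 589 normalized counts in KO-labelled libraries, against 24.8, 34.8 and 17.5 in WT libraries, 24.0-fold higher (log2 fold change 4.59, SE 0.24, adjusted p = 2.36e-06). Itga11, another collagen-binding integrin chain, had 194, 182 and 169 in KO-labelled libraries, against 1039, 1542 and 1299 in WT, 7.12-fold lower (log2 fold change -2.81, SE 0.15, adjusted p = 2.38e-06). Both pair with Itgb1, which had 125913, 121196 and 121614 in KO-labelled libraries, against 37216, 36744 and 38336 in WT, 3.28-fold higher (adjusted p = 1.34e-06). Ctsk, a collagen-degrading cathepsin gene, was 3.19-fold higher, Itga10 2.01-fold, Cd93 2.57-fold and the receptor kinase gene Ddr2 1.41-fold, a call lost with the length and GC trend removed (adjusted p = 0.26). The other receptor kinase gene, Ddr1, was 1.34-fold lower, Plaur 1.73-fold, Ctsl 1.42-fold and Adgrg1 1.27-fold. The Adgrg1 call held in 1 of 6 fits with a library left out, and adjusted p was 0.094, 0.0862 and 0.0538 without Bmal1 KO replicates 1, 2 and 3 and 0.0791 and 0.114 without WT replicates 2 and 3.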

How the data were processed

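Polyadenylated RNA of 6 libraries was analysed, grouped by sample title. The authors' deposited table gives a non-negative signal per gene and library in the form of normalized counts, and 0 of its columns were left unmapped. The submitters' processing notes name Trimmomatic, HISAT2, featureCounts and mm10 (no version or role given), and the libraries were made with a stranded mRNA kit, per the labels' protocols. Which annotation and strand setting the counting used is not given in the sources used here. Values in each library were whole multiples of a common step (100% within 0.01), so whole reads were recovered, and the implied size factors (0.834 to 1.21) equalled median-ratio factors recomputed from those reads. Scaling of this kind rests on the median gene being level between libraries.

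The main test was limma 3.58.1 (R 4.3.3) with a mean-variance trend on log2(value + 1), with group as the only term, over genes that reached 10 in 3 or more libraries. Benjamini-Hochberg adjustment ran over all 16086 genes (threshold 0.05), and adjusted p-values of genes come from limma where no other tool is named. The pseudocount pulls differences of low genes toward 0. Folds of genes are ratios of mean normalized counts, and a log2 fold change, a difference of mean log values, can lie above or below the log2 of that ratio. Folds of chain ratios come from differences of mean log2 ratios. Fits were tested on simulated data with known changes. Alternatives were TMM and upper-quartile scaling, pseudocounts of 0.5 and 5, no filter, a stricter filter (1 CPM in 3 libraries), a replicate block, each library left out, edgeR 4.0.16, DESeq2 1.42.0 and voom on recovered reads (edgeR called 11479 genes), and the length and GC trend, added after the data were seen. Exon lengths are unions of GENCODE M21 basic exons (GRCm38), and gene coordinates, counted from 1, are RefSeq bounds of the same build.

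The members and lists were chosen with earlier results of these data known. All collagen genes are named, with values per library for those with a mean of at least 100 in either group. From the processing and the receptor lists up to 6 genes in each direction with the smallest adjusted p are named. Bmp1, Adamts2, Adamts3, Plod1 and Plod3 were named after their values were seen. Counting intervals and limits leave out all other error, since PCR duplicates are not separate molecules. Each pair of replicates differed beyond sampling noise (chi-square per degree of freedom at least 10.01).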

Additional observations from a re-analysis of the deposited data

How the results depend on the processing

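Of the 42 tested collagen genes, 28 kept their direction and their side of the threshold in each of the 17 alternatives that tested them. Reversals came only in genes that had not passed. With the length and GC trend removed, the log2 fold changes turned to -0.28 for Col27a1, -0.022 for Col4a5, -0.019 for Col6a5, -0.045 for Col6a6 and -0.34 for Col7a1. With 1 library left out at a time they ranged from -0.098 (without Bmal1 KO replicate 3) to 0.41 for Col9a3, from -0.28 to 0.055 for Col17a1 (above 0 without WT replicate 3, and 0.051 without Bmal1 KO replicate 1) and from -0.66 to 0.29 for Col10a1 (above 0 without Bmal1 KO replicate 1, and 0.27 without WT replicate 1). The cause of these reversals was not tested. The difference of the fibrillar share (KO-labelled minus WT) was -4.92 percentage points in plain reads and 0.217 per kilobase of exon, where each gene is weighed by its length. Counts of calls stayed within 1.5 times of the values given in the report for collagens, processing genes, receptors and all genes. For collagens they ran from 20 to 23 higher and 8 to 12 lower, except for 17 higher with the filter of 1 CPM, which tested 32 collagens. TMM scaling moved the median of all genes to -0.072 and upper-quartile scaling to 0.041, and collagen calls were 22 higher and 9 lower, and 23 higher and 8 lower. The replicate numbers did not pair the libraries (correlations of deviations -0.0045, 0.026 and 0.084 for numbers 1, 2 and 3, and not every library correlated best with its own number). With the replicate block 22 collagens were higher and 8 lower, and calls over all genes were 11556 against 11435. Col22a1 was not called with the block (adjusted p = 0.0535), nor with no filter (adjusted p = 0.052) or the trend removed (adjusted p = 0.186). Adgrg1 was not called with upper-quartile scaling (adjusted p = 0.0685), nor Col24a1 with the trend removed (adjusted p = 0.0722). Depth limits mainly the collagen genes under 100 normalized counts in both groups, 14 of which were tested.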
